A study of Zea mays with 112 samples.

Results

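NKD1 and NKD2 are a pair of C2H2 zinc finger transcription factors (TFs) of maize, and their binding sites on naked genomic DNA are described here from the 2 peak lists that carry these names, in a series that holds 110 other lists. The NKD1 list held 29337 peaks and the NKD2 list 65352 peaks, of 9750022 peaks in all lists. They ranked 86 and 64 by number of peaks. The lists come from ampDAP-seq, an in vitro assay in which a HaloTag fusion of a full-length TF, made in wheat germ extract, is held on beads and mixed with PCR-amplified leaf DNA of the inbred line B73. The amplified DNA carries no chromatin and no DNA methylation, so a peak says what the protein bound on bare DNA and nothing of the endosperm. The labels describe the same DNA, cultivar and extract for every TF, and they name a different protein on the beads for each group. The coding sequences came from leaf cDNA per the labels and from endosperm cDNA per the study's methods. There was 1 list per TF and no replicate library, so differences between NKD1 and NKD2 carry no test and intervals cover counting error only. The lists do not hold the read depth, on which the number of peaks depends. The file names of both lists hold an identifier that starts with 20260, as do those of 28 lists in all. What its digits mark is not stated, and they were used as technical batches only. The remaining lists have other digits or none, so there protein and batch cannot be told apart.

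The names come from naked endosperm, the mutant phenotype in which the outer layer of the endosperm is disturbed. Both genes encode INDETERMINATE-DOMAIN (IDD) zinc finger proteins that are needed for the aleurone, the surface cell layer of the endosperm that stores minerals and oil and later secretes enzymes to mobilise the starch below it. Double mutants form several layers of incompletely differentiated cells in place of a normal aleurone. PBF1, a Dof zinc finger TF of the endosperm, binds the prolamin box of storage protein promoters, and NAC and bZIP TFs include other known regulators of storage genes.

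The words that the study's motif tables list for the pair are shown because the letters they share are the only sequence at hand for comparing the proteins. Capitals mark the longest run of letters found in both words, 7 bases long, at positions 4 to 10 of the NKD1 word and 1 to 7 of the NKD2 word, counted from the 5′ end.
NKD1: agtTCGTCGT
NKD2: TCGTCGTcttc
How often these words occur at the sites was not analysed here, since no sequence of the B73 v4 genome used by the lists was at hand. For the same reason the sites below are given by position only, without the genes around them.

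The stronger a peak, the more often both proteins had it. A summit, the central base of the 201-bp interval that the authors' caller gives a peak, was counted as shared when the other list had a summit within 100 bp. NKD1 shared 16579 of its 29337 peaks (56.5%, 95% Wilson interval 55.9 to 57.1) and NKD2 shared 18459 of its 65352 (28.2%, 27.9 to 28.6). Signal is the strength value of the authors' caller, and it was used to rank peaks within a list. Among NKD1 peaks, sharing stood at 41.3% in the weakest 10% of the list and 87.2% in the strongest 10%. Among NKD2 peaks it was 9.73% in the weakest 10% and 84.5% in the strongest. The longer NKD2 list is thus made up mostly of weaker peaks that the NKD1 list does not hold. When NKD2 was reduced to as many peaks as NKD1, by signal, the shares came to 45.8% of NKD1 peaks and 48.5% of NKD2 peaks. Of the 5000 strongest peaks, 81.3% of NKD1 lay beside an NKD2 summit and 87.7% of NKD2 beside an NKD1 summit.

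**Figure D1:**
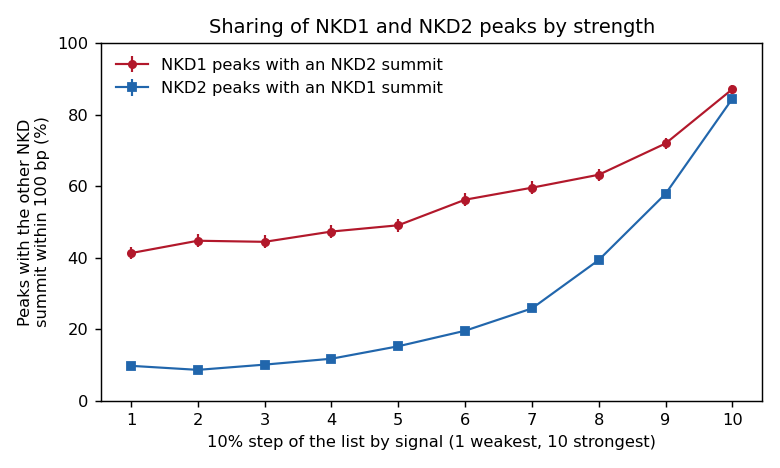
Percentage of peaks with a summit of the other list within 100 bp (y axis) by 10% steps of each list from weakest to strongest signal (x axis). Circles are NKD1 peaks, squares NKD2 peaks, and bars 95% Wilson intervals; the NKD2 share is 9.73% in the weakest step and 84.5% in the strongest, where NKD1 stands at 87.2%.

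Signal of shared peaks was higher than that of the rest in both lists, and the gap was wider for NKD2. Shared NKD1 peaks had a median signal of 34 (quartiles 26 and 49), and those without NKD2 had 28 (23.1 and 35). For NKD2 the medians were 61.6 (37 and 102.6) with NKD1 and 28 (22 and 39.3) without it. Signals of different lists are not on one scale, so strengths of the pair were compared by rank. At 16199 common sites, counted once each as mutually nearest summits, the Spearman correlation of signal was 0.54. That value describes sites of 2 single libraries, which share their DNA input, and is given without a test. Of the 2442 common sites in the strongest 10% of NKD1, 1892 were also in the strongest 10% of NKD2, and 79 were in its weaker 50%. Of the 5023 common sites in the strongest 10% of NKD2, 682 were in the weaker 50% of NKD1. These percentiles refer to lists of unequal length, and of all 16199 common sites 9703 were in the stronger 50% of NKD1 and 13212 in that of NKD2, so the 2 counts are not compared.

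The strongest site of the pair on B73 v4 was the same in both lists. It lay on chromosome 5 with the NKD1 summit at 149315381 and the NKD2 summit at 149315380, at signals of 786.7 and 1201.6, the highest of each list. The next was also on chromosome 5, with summits at 157628140 for NKD1 and 157628100 for NKD2 and signals of 457.5 and 1187.9. On chromosome 10 the NKD1 summit at 75861138 and the NKD2 summit at 75861139 had signals of 631.1 and 609.2. The other 2 of the 5 highest common sites lay on chromosome 8 at 89230104 and 89230076, and on chromosome 10 at 13557516 and 13557569, again for NKD1 and NKD2 in that order. Between 1 and 8 other lists had a summit at these 5 sites, where the median over all peaks of either NKD list was 1.

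Both proteins also had sites of their own. A site of one list with no summit of the other within 1 kb was found for 9899 NKD1 peaks (33.7%) and 41202 NKD2 peaks (63%), but for 581 (11.6%) and 213 (4.26%) of the 5000 strongest. The strongest such NKD1 peak was on chromosome 9 at 7236920, with a signal of 134.0 and rank 295 in its list. The next were on chromosome 10 at 24676381 and on chromosome 3 at 171422116, with signals of 132.3 and 127.0. None of these 3 had more than 1 other list within 100 bp. The strongest NKD2 peak without NKD1 was on chromosome 1 at 75050685, with a signal of 412.1 and rank 106. It was followed by chromosome 3 at 36199964 and chromosome 5 at 50192865, with signals of 336.2 and 328.0, and the last had no NKD1 summit within 189834 bp.

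Summits of the pair met at fixed distances. The median distance at common sites was 1 bp (quartiles 1 and 39), and 8166 of the 16199 sites (50.4%) had summits exactly 1 bp apart, while 29 had them on the same base. The NKD2 summit was at the higher coordinate at 4108 of the 1-bp sites and at the lower at 4058, an even split between the sides. Smaller peaks of the distribution stood at 34 bp (758 sites), 56 bp (609), 35 bp (383) and 58 bp (337). The caller places a summit with the help of short sequence words, so a summit distance is in part a distance between words. Sites with summits 55 to 58 bp apart were strong, with median within-list percentiles of 66.6 for NKD1 and 89.3 for NKD2, and 70.9% of them had a further NKD2 summit within 500 bp. Sites 34 or 35 bp apart had median percentiles of 49.2 and 79.97 and a further NKD2 summit in 35.6% of cases. Among the 5000 strongest of each list, 49.4% of joined summits of the pair stood at the commonest distance, which was rank 138 of the 551 pairs of lists with at least 500 joined summits, where the median of that share was 30.1%.

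**Figure D2:**
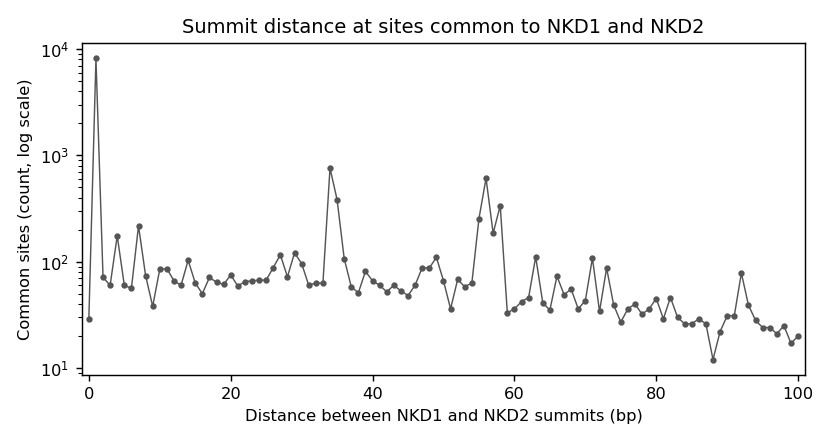
Number of common sites (y axis, log scale) by distance between the NKD1 and the NKD2 summit (x axis, bp), 1 point per base. The highest point is 8166 sites at 1 bp, and smaller ones stand at 34 to 35 bp and at 55 to 58 bp.

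The 2 lists were closer to each other than to any other list. Sharing between 5000 strongest and 5000 strongest, averaged over both directions, was 55.9% and ranked 83 of 6216 pairs of lists. The second closest list to NKD1 was MYBR33, a MYB-related TF, with 7.76%. The second closest to NKD2 was NACTF134, a NAC-domain TF, with 8.13%, and after it PBF1 with 0.49%. The median over all lists was 0.19% for NKD1 and 0.06% for NKD2.

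Some NKD sites came in groups, and within these a regular spacing recurred. Chaining summits of either list that lay within 500 bp gave 64684 clusters, of which 16580 held both proteins, 9532 NKD1 alone and 38572 NKD2 alone. Clusters with 2 or more summits of one list numbered 2962 for NKD1 and 9386 for NKD2, and 3 or more summits were found in 244 and 780. The share of clusters that also held NKD1 was 22.2% (Wilson 21.8 to 22.5) with 1 NKD2 summit, 66.3% (65.3 to 67.3) with 2 and 93.8% (91.9 to 95.3) with 3 or 4. Because the chains use summits of both lists, an NKD1 summit can itself join NKD2 summits into 1 cluster. The rise is therefore partly built in, by an amount that was not tested. Clusters of more NKD2 summits also held stronger peaks, the best peak having a median percentile of 44.6, 81.8 and 95.5 in the same order. The part of strength in the sharing was not tested. The 3 clusters with the most summits lay on chromosome 1 from 231402885 to 231404385 with 5 NKD1 and 4 NKD2 summits, on chromosome 5 from 161009677 to 161010417 with 4 and 5, and on chromosome 1 from 172840859 to 172841145 with 4 and 3.

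Part of the neighbouring summits of one list stood at multiples of 57 bp. Of neighbours up to 600 bp apart, the commonest distance was 114 bp in both lists, with 319 pairs of NKD1 and 1081 pairs of NKD2 summits. Next came 57 bp (196 and 671 pairs) and 171 bp (138 and 510). Distances within 1 bp of 57, 114, 171 or 228 bp made up 24.3% of 3495 NKD1 and 30.0% of 10256 NKD2 distances, against a median of 2.66% in the other 110 lists. This spacing was chosen after the values were seen, so it is given as a description. The share was highest in NACTF134 (37.8%), then NKD2 and NKD1, and the next list was BZIP104 with 16.9%. The spacing went with shared sites. It held for 47.7% of NKD1 neighbours that both lay beside NKD2 and for 0.972% of those where neither did, while for NKD2 the shares were 41.1% with NKD1 and 18.1% without. With peaks of −log10 q of 10 or more, where q is the authors' adjusted p-value, the shares were 47% for NKD1 and 44.7% for NKD2.

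**Figure D3:**
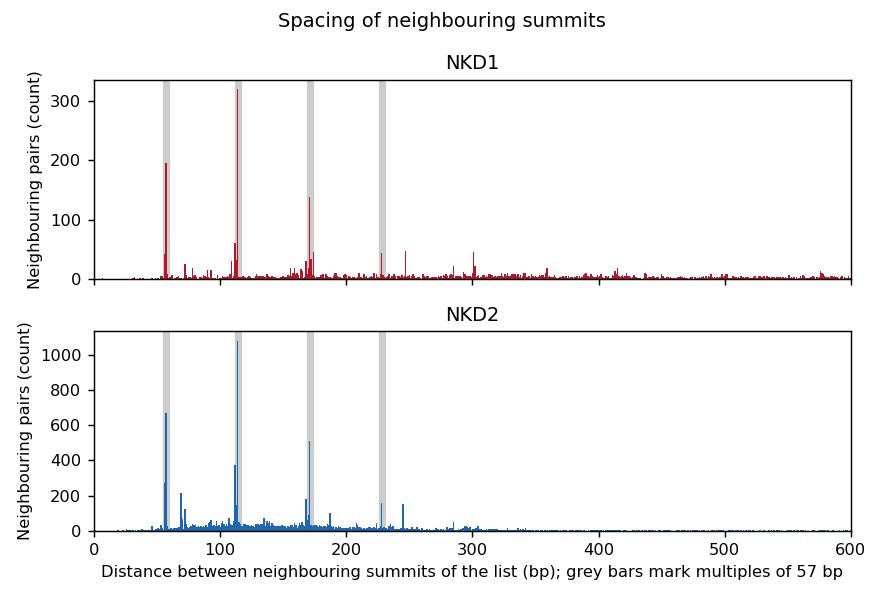
Number of neighbouring summit pairs (y axis) by distance between them (x axis, bp) in the NKD1 list (top) and the NKD2 list (bottom), with grey bars at multiples of 57 bp. The highest columns are at 114 bp, with 319 pairs in NKD1 and 1081 in NKD2.

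Runs of at least 3 summits with every step in this spacing numbered 49 for NKD1 and 326 for NKD2. They held 149 NKD1 and 993 NKD2 summits, or 0.508% and 1.52% of the lists, and their median within-list percentiles were 83.2 and 82.96. The longest had 5 NKD2 summits, on chromosome 8 from 136327423 to 136327765, with steps of 114, 57, 57 and 114 bp and signals of 35.3 to 141.5. A run of 4 NKD1 summits on chromosome 9, from 120972736 to 120973021, had steps of 57, 57 and 171 bp. The NKD2 runs were spread over all 10 chromosomes, with 17 to 41 on each, and 47.4% of them lay in the outer 25% at either chromosome end. In the runs, 76.5% of NKD1 and 67.3% of NKD2 summits had a NACTF134 summit within 100 bp, against 11.3% and 11.2% of the summits outside them.

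At the 5000 strongest peaks of either protein, NACTF134 was the list found most often apart from the pair itself. It had a summit within 100 bp at 24% of the 5000 strongest NKD1 peaks and 32.7% of the 5000 strongest NKD2 peaks. When the NKD positions were moved by 10 fixed offsets of 100 to 500 kb, the shares were at most 0.48% and 0.32%, which gave ratios of 50.1 and 102.2. Over all peaks it was still the most frequent beside NKD2 (12.1%), while beside NKD1 it stood at 11.6%, under MADS53 at 15.01% and others. In the other direction, 10.8% of the 34761 NACTF134 peaks had an NKD1 summit and 22.6% an NKD2 summit within 100 bp. The distance was fixed too. Beside NKD1, the commonest distances were 19 bp (395 peaks), 38 bp (370), 95 bp (127) and 76 bp (109), and beside NKD2 they were 18 bp (622), 39 bp (542), 96 bp (140) and 75 bp (128). The commonest 2 distances of each list add up to 57 bp, and the next 2 are each 57 bp longer than one of them.

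NACTF134 sites followed the common and the grouped NKD sites. The share was 27.8% of strong NKD1 peaks with NKD2 and 7.49% of those without. It was 34.6% of strong NKD2 peaks with NKD1 and 18.9% of those without. For NKD2 it was 41.1% (Wilson 39.5 to 42.8) where another NKD2 summit lay within 500 bp and 14.5% (12.9 to 16.3) where none did. For NKD1 the same split gave 35% (32.8 to 37.2) and 18.2% (16.9 to 19.6). Without the summits that had NACTF134 within 100 bp, distances at multiples of 57 bp made up 7.75% of NKD1 and 11.9% of NKD2 neighbours. Both were above the median of 2.66% of other lists, which were not reduced in this way. NACTF134 itself (37.8%) and BZIP104 (16.9%) stood above both values, and GBF1 (10.5%) and EREB211 (9.29%) above that of NKD1 only. The NACTF134 file identifier starts with the same digits, 20260. Of the 26 other lists with these digits, 13 were co-bound with NKD1 and 7 with NKD2 by the rule below, against 54 and 15 of the remaining 84.

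More lists were found beside strong NKD1 than beside strong NKD2 peaks. A list counted as co-bound where its share at the 5000 strongest NKD peaks was at least 2 times the highest share at the 10 moved positions, a rule that gives no p-value. Over all 12432 ordered pairs of lists 42.3% met this rule. NKD1 met it with 68 other lists (61.3%) and NKD2 with 23 (20.7%), each count including the other NKD protein, and lists of the series ranged from 7 to 86 with a median of 44.5. All 22 further lists co-bound with NKD2 were also co-bound with NKD1, and 45 were co-bound with NKD1 alone. At the strongest peaks with fewer than 10 other lists within 100 bp, 36 lists were co-bound with NKD1 and 12 with NKD2, a restriction that lowers shares by its construction. With all peaks in place of the strongest the counts were 76 for NKD1 and 50 for NKD2, and with a ratio of 3 they were 54 and 13, so the NKD2 count depends on these choices.

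**Figure D4:**
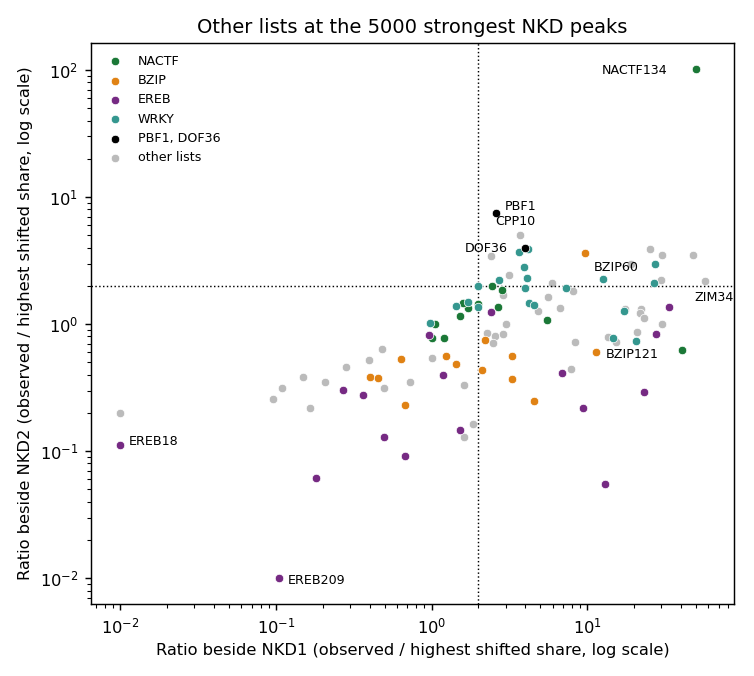
Ratio of the observed share to the highest share at moved positions beside the 5000 strongest NKD1 peaks (x axis) and NKD2 peaks (y axis), both on log scales, 1 point per other list and coloured by the first letters of its name. Dotted lines mark the ratio of 2 and values under 0.01 are drawn at 0.01; NACTF134 stands apart at 50.1 and 102.2, and no list lies above the line for NKD2 only.

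The other lists high beside NKD1 came from many families. After ZIM34 (8.02% of NKD1 peaks, at most 0.14% at moved positions, ratio 57.3) and NACTF134 stood ZAG2, a MADS-box TF, at 8.56% and a ratio of 47.6. The 10 highest also held NACTF67, EREB65, ZIM10, SFB1, MYBR19, EREB118 and WRKY123, with shares of 3.04% to 10.5% and ratios of 27.1 to 40.9. EREB TFs carry the AP2/ERF domain and WRKY TFs bind W-boxes, so the list holds proteins of unlike DNA-binding domains. Of these 10, 9 were more frequent at strong NKD1 peaks without NKD2 than at those with it, and NACTF134 was less frequent there. ZIM34 lay at 3.0% of strong NKD1 peaks with NKD2 and 30.0% of those without, ZAG2 at 3.25% and 31.7%, SFB1 at 3.37% and 33.8%, and EREB118 at 3.52% and 41.1%. The lowest ratios were those of EREB18, THX47 and HB118. EREB18 and THX47 had no summit at any of the 5000 peaks, which allows a share of up to 0.06%. At moved positions EREB18 had 0.08% to 0.16%. THX47 had 0% to 0.12% there, so its observed share equals its lowest moved share. HB118 had 0.08% against at least 0.48% at moved positions.

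NKD1 peaks without NKD2 were crowded more often than those with it. Of the strongest NKD1 peaks, 6.71% (Wilson 5.99 to 7.53) of the 4066 with NKD2 and 56.7% (53.5 to 59.9) of the 934 without it had at least 10 of the other 110 lists within 100 bp. The median numbers of other lists were 1 and 12. Over all NKD1 peaks the shares were 5.01% with NKD2 and 34.9% without. For NKD2 the shares were lower than for NKD1, with 1.57% (1.25 to 1.99) crowded among the strong peaks with NKD1 and 2.28% (1.36 to 3.78) among those without. The median was 1 list in either class. Over all NKD2 peaks the order was the other way round from NKD1, with 4.82% (4.52 to 5.14) crowded with NKD1 and 1.97% (1.85 to 2.10) without. The common sites with the most other lists were on chromosome 6 with the NKD1 summit at 154421717 (49 lists), on chromosome 5 at 191078666 (43) and on chromosome 7 at 96090364 (43). Their NKD2 signals of 34.9 to 43.0 were modest, and the NKD1 signal of the first was 93.0.

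Few lists were high beside NKD2. After NACTF134 came PBF1, with a summit at 3.14% of NKD2 peaks and at most 0.42% at moved positions (ratio 7.48). CPP10, a cysteine-rich CPP-family protein, stood at 7.98% (ratio 4.99), and DOF36, another Dof TF, at 4.12% (ratio 3.96). WRKY2, WRKY50, BZIP60, BZR1, MYBR33 and WRKY8 completed the 10 highest among lists with a share of at least 1%. Their shares were 1.10% to 3.76% and their ratios 2.83 to 3.92. Under that share, MYB155, ZAG2, ZIM10 and WRKY123 had ratios of 3 to 3.92. Both Dof proteins stood at a preferred distance from NKD2. Of the 157 NKD2 peaks with PBF1, 52 had it 74 bp away, and of the 206 with DOF36, 69 had it 75 bp away. Beside NKD1, PBF1 was found at 1.34% (ratio 2.58) and DOF36 at 4.12% (ratio 3.96). Both fell under a ratio of 2 at the peaks with fewer than 10 other lists, to 1.96 and 1.91, where the restriction itself lowers shares. Over all NKD1 peaks the ratios were 4.49 for PBF1 and 5.42 for DOF36, against 6.45 and 4.62 over all NKD2 peaks. The lowest beside NKD2 were EREB209 (0.02% of peaks, at least 1.80% at moved positions), EREB200 (0.02%, at least 0.12%) and EREB54 (0.12%, at least 1.48%).

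Name groups are read at the strongest peaks, against 67 of all 110 other lists co-bound with NKD1 and 22 with NKD2. Of these 110 lists, 17 beside NKD1 and 34 beside NKD2 lay below every moved position. Of 13 NACTF lists 6 were co-bound with NKD1 and 1, NACTF134, with NKD2. The lowest ratios were 1.0 for NACTF29 beside NKD1 and 0.625 for NACTF67 beside NKD2. NACTF67 had a ratio of 40.9 beside NKD1, and its 0.1% beside NKD2 lay within its 0.06% to 0.16% at moved positions. Over all NKD2 peaks shared with NKD1, ratios were 10.3 for NACTF67, 4.57 for NACTF77, 4.47 for NACTF49 and 3.51 for NACTF5. Over all NKD2 peaks not shared they were 2.80, 2.78, 5.45 and 4.38 in that order. NACTF11, NACTF126, NACTF29 and NACTF65 stayed under 2 in both classes, and NACTF2 did in the latter. The count of 1 thus belongs to the strongest NKD2 peaks. Of 13 BZIP lists 7 were co-bound with NKD1, from 0.4 for BZIP114 to 11.4 for BZIP121. With NKD2 only BZIP60 was co-bound (ratio 3.62), the lowest was BZIP104 at 0.231, and 10 of the 13 lay below the lowest of the moved positions. EREB lists met the rule 7 times of 17 with NKD1 and 0 times with NKD2, where 13 lay below every moved position. These counts, too, belong to the strongest NKD2 peaks. Over all NKD2 peaks shared with NKD1, EREB ratios ran from 0 for EREB18 to 7.81 for EREB65. There BZIP60, BZIP121 and BZIP23 had 5.33, 2.53 and 2.01, and the other BZIP lists stayed under 2. Over NKD2 peaks not shared, all EREB lists stayed under 2, the highest being EREB118 at 1.97. WRKY lists met it 15 times of 20 with NKD1 and 8 times with NKD2.

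The exact tests called no difference between the NKD pair and the other lists in 3 properties of the 5000 strongest peaks. Each was compared with an exact permutation test, two-sided, that set the mean of the pair minus the mean of the other lists against every choice of 2 lists, with Benjamini-Hochberg adjustment over the 3 tests. Another own summit lay within 500 bp of 34.7% of NKD1 and 68.4% of NKD2 peaks, against a mean of 51% ± 23.7 (SD, n = 110 lists) in the others (difference 0.575 percentage points, exact test, adjusted p = 0.974). The 2 proteins lay on either side of that mean. At least 10 other lists were found at 16.7% of NKD1 and 1.82% of NKD2 peaks, against 41.1% ± 33 (difference −31.8, exact p = 0.197, adjusted p = 0.591). Both values were below the mean of the others, and the difference was −34.7 among the 75 lists whose run identifiers start with 20 (exact p = 0.179) and −22.2 among the 28 with 20260 (exact p = 0.389).

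**Figure D5:**
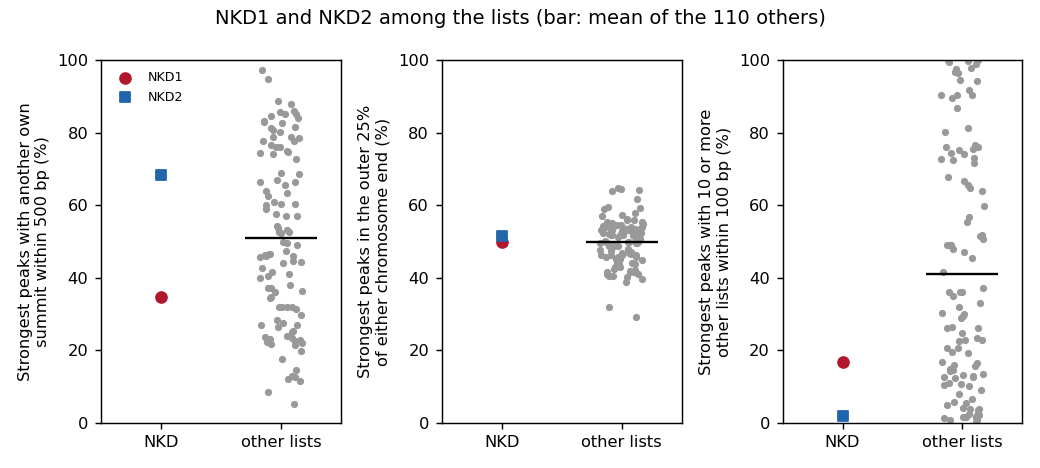
Percentage of the 5000 strongest peaks (y axes) with another own summit within 500 bp (left), in the outer 25% of either chromosome end (middle) and with at least 10 other lists within 100 bp (right), for NKD1 (circle), NKD2 (square) and the 110 other lists (grey points, with their mean as a bar). NKD1 and NKD2 lie within the range of the other lists in each panel, and at 34.7% and 68.4% on either side of the mean in the left one.

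Both proteins bound along whole chromosomes. Of the 5000 strongest peaks, 50.0% of NKD1 and 51.4% of NKD2 lay within 25% of the span from a chromosome end, against 49.9% ± 6.35 in the other lists (difference 0.742 percentage points, exact permutation test, adjusted p = 0.974). Over all peaks the shares were 51.9% in both lists. Common NKD1 peaks stood at 51.2% (Wilson 50.4 to 52) and NKD1 peaks without NKD2 at 52.9% (52 to 53.7), a small gap. Density ranged from 12.9 peaks per Mb on chromosome 6 to 14.2 on chromosome 7 for NKD1, and from 29.2 on chromosome 6 to 32 on chromosome 9 for NKD2. No chromosome was therefore favoured strongly by either protein. Names other than chromosomes 1 to 10 held 0.989% of NKD1 and 0.996% of NKD2 peaks.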

How the data were processed

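Per the submitters' processing notes and the study's methods, Trimmomatic 0.39 and Bowtie2 2.4.1 served for trimming and for alignment to B73 v4, Picard removed duplicates, and GEM made the peak calls with an empty HaloTag vector as control. Signal values were used as the authors deposited them, and no scaling between lists is known. The −log10 p-values and −log10 q-values are those deposited by the authors, of which q set a stricter threshold (10 or more). The deposited score was not used. Computation used Python 3 with numpy, pandas and scipy, and functions were tested on simulated lists.

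Positions are summits, 1-based. Sharing used 100 bp. Chromosome span is the largest peak end in any list. Moved positions were wrapped at the span, and a moved share under 0.02% was set to 0.02%. Named lists were PBF1, DOF36, the NACTF and BZIP groups, and the 10 highest ratios (share of at least 1%) and 3 lowest beside each NKD protein. Named sites were the 5 strongest common sites, 3 strongest of each protein alone, 3 fullest clusters and 3 most crowded common sites. The members, lists and rules were chosen with earlier results of these data known. Alternatives changed distances, thresholds, offsets, numbers of peaks and the lists compared.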

Additional observations from a re-analysis of the deposited data

How the results depend on the processing

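With 20 bp in place of 100 bp, common sites numbered 9730 and the shares were 33.2% of NKD1 and 14.9% of NKD2 peaks. With 50 bp the shares were 44.1% and 20.1%, and with 200 bp 62% and 34.5%, at a median distance of 7 bp. At −log10 q of 10 or more, 3328 sites were common, 79.9% of NKD1 and 20.7% of NKD2 peaks. With NKD2 reduced to the length of NKD1 the shares were 45.8% and 48.5%. The correlation of signal was 0.58 at 20 bp, 0.47 at the stricter q and 0.56 for −log10 q itself. Sharing of the strongest peaks was 31% at 20 bp and 58.6% when ranked by q. Co-bound lists of NKD2 numbered 13 at a ratio of 3 and 50 with all peaks. In an alternative chosen after seeing the data, the strongest peaks with fewer than 10 other lists, there were 36 for NKD1 and 12 for NKD2. PBF1 beside NKD1 was under the ratio of 3 (2.58).

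The difference in own clusters, near 0 and past no threshold, changed sign at 1000 bp (−1.69 percentage points), among lists with the same 5 digits (−0.725) and without NKD2 (−16.3), against 17.4 without NKD1. That in chromosome position was −0.418 for the outer 10%. The exact tests passed the threshold under no alternative run. The cause of these shifts was not tested. No paired analysis was possible because each TF has 1 list. Depth is unknown, so absent peaks may be undetected ones.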
